A study of Mus musculus with 4 samples.

Results

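The contractile genes of heart muscle were followed in dissected cardiac cushions of mouse embryos. They were 39 genes of the cardiomyocyte sarcomere and Z-disc, listed by symbol, and all 39 had a row among the 23337 gene rows of the count table. Cushions, in the atrioventricular canal and the outflow tract, are swellings that form the valves; embryonic muscle lies directly under them, and these genes are described as measures of the myocardium in each dissection. The 2 genotypes on the C57BL/6 strain were compared at embryonic day 14.5: 2 libraries from wildtype embryos and 2 from Nfatc1Cre;Brg1F/F littermates, in which a Cre under the endocardial gene Nfatc1 deletes floxed Brg1 (Smarca4), the motor subunit of a complex that remodels chromatin. All 4 libraries came from tissue picked by reporter GFP and from RNA cleared of ribosomal transcripts. The series text speaks of pairs with littermates, and mutant and wildtype libraries of the same number are called pair 1 and pair 2 here. Whether a library held 1 embryo or several is not given in the sources used here, so p-values measure only a spread between libraries that may be partly technical. The Cre is not a cardiomyocyte driver, and the sources do not say how many muscle cells carried the reporter.

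A sarcomere is the repeating contractile unit of striated muscle. Thick filaments of myosin heavy and light chains pull on thin filaments of actin, which tropomyosin and the troponin complex open to myosin when calcium rises. Titin spans from the Z-disc, where thin filaments are anchored, to the M-band in the middle of the thick filaments. Atrial and ventricular muscle use different myosin isoforms: in the embryo Myl7, Myl4 and Myh6 are strongest in the atria, although Myl4 is also made in embryonic ventricle, while Myl2, Myl3 and Myh7 mark ventricular muscle.

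Promoter sequence was read for genes of both chamber sets, for the cardiac actin gene Actc1 and for Xirp2, the member with the smallest p-value in the comparison. RefSeq windows on GRCm38.p6 (the mm10 build) matched 33 of the 39 genes with 46 windows. Shown 5′ to 3′ on the gene's strand are up to 250 bases before the RefSeq start, cut at the GENCODE start where that lies further upstream. Capitals mark matches on either strand to the CArG box bound by SRF, to the MEF2 site, to the M-CAT element CATTCC bound by TEAD factors, and to TATAAA. A MEF2 or CArG match can overlap TATAAA.
Myl7 (chr11:5898783-5899032, - strand): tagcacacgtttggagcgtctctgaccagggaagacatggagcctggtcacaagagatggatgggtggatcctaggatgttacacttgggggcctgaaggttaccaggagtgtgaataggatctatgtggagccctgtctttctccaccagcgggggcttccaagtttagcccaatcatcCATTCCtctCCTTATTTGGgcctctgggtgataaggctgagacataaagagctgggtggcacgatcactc
Myh6 (chr14:54966642-54966857, - strand): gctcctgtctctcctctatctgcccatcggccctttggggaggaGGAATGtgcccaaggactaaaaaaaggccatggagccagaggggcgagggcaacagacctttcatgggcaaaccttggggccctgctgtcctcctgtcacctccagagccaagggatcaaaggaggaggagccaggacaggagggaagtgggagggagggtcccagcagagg
Myl3 (chr9:110763428-110763645, + strand): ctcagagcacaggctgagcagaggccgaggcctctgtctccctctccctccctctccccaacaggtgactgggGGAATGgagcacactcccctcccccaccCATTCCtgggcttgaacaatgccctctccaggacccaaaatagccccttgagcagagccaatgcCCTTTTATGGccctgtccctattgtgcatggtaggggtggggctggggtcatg
Myh7 (chr14:54994627-54994876, - strand): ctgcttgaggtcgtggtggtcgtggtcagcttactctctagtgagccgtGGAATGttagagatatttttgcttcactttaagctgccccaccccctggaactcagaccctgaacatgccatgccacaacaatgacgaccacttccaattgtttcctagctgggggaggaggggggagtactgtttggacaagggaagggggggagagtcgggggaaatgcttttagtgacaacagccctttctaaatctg
Actc1 (chr2:114052888-114053125, - strand): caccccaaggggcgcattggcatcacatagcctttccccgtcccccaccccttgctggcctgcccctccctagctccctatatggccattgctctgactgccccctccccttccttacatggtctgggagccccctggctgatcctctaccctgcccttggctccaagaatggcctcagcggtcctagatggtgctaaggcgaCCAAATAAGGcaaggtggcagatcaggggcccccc
Xirp2 (chr2:67445752-67446001, + strand): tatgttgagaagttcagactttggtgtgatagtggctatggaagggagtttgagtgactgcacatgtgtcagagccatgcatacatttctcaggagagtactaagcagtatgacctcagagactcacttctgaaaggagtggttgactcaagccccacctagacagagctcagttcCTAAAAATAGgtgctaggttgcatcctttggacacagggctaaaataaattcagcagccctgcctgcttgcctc
A CArG box stood 61 to 52 bases before the start of Myl7, 85 to 76 before Myl3 and 47 to 38 before Actc1, and a MEF2 site 74 to 65 before Xirp2. The atrial myosin gene Myh6 and its ventricular neighbour Myh7 each held an M-CAT match near 200 bases upstream, at 206 to 201 and at 201 to 196. Over all windows of these genes, 10 of 46 (21.7%) held a CArG box, against 1.47% of 32851 promoter windows of the same length, and the 10 windows belonged to Acta1, Actc1, Fhl2, Ldb3, Myl3, Myl7, Myom1 and Nebl. The MEF2 site was in 15.2% of the windows against 2.92% of all, M-CAT in 26.1% against 12.6%, and TATAAA in 13.0% against 12.4%. A match describes letters in the window and is no evidence of binding.

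The cushion libraries held much heart muscle RNA. The 39 genes took 8.66% (replicate 1) and 7.86% (replicate 2) of reads in genes for wildtype, and 7.15% and 7.67% for mutant libraries. Both mutant libraries were below both wildtype libraries, with means of 8.26% ± 0.563 for wildtype and 7.41% ± 0.365 for mutant libraries (SD, n = 2 each), a difference of -0.844 percentage points. Counting error is small beside this: the Wilson 95% interval of wildtype replicate 1 ran from 8.64% to 8.67%. The difference was unequal between the pairs: the mutant share was 0.827 times the wildtype share in pair 1 and 0.976 times in pair 2. With all tallied reads as the base the groups overlapped: the genes took 2.69% and 2.30% for wildtype and 2.15% and 2.35% for mutant libraries, and the mutant was the higher one in pair 2. The share was given no test, since an exact two-sided permutation test of a single value over 2 against 2 libraries goes no lower than p = 0.33. In bulk RNA, fewer muscle cells and less RNA per muscle cell cannot be told apart.

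**Figure D1:**
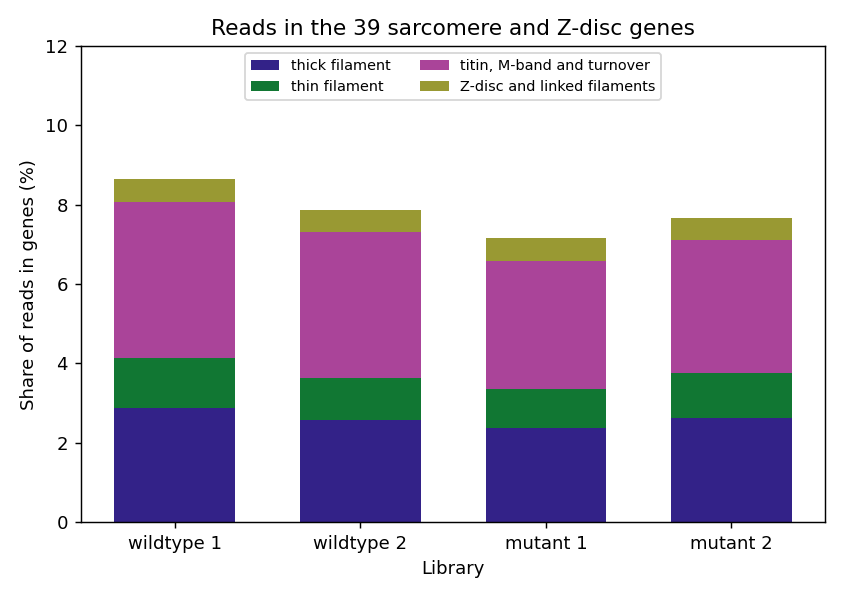
Stacked bars give the share of reads in genes (%, axis from 0) taken by the 39 genes in each library, by part of the sarcomere, with no error bars because each bar is 1 library. The totals run from 7.15% in mutant replicate 1 to 8.66% in wildtype replicate 1. The group of titin, M-band and turnover genes makes up the tallest segment in each.

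Ttn alone, the gene of titin, made up a large part of this share; without it, the genes took 4.99% and 4.38% in the wildtype libraries and 4.16% and 4.53% in the mutant libraries, and the groups overlapped. Reads fell in genes at 14104458 to 22426537 per library, so that 3 reads correspond to 0.134 to 0.213 CPM (counts scaled to a common library size). The lowest value of a member in any library was 5.86 CPM, for Xirp2. The deleted gene Smarca4 measured 251 and 231 CPM (wildtype) and 282 and 239 CPM (mutant); its count spans the whole gene and all cells, so it does not check the deletion.

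Per length of transcript, regulatory light chain Myl2 had the highest level of the 39 genes, with a mean over libraries of 6065 CPM per kilobase. Actc1, cardiac actin, followed at 2994, then Myl4, an essential light chain, at 2510, Myh7, the slow myosin heavy chain, at 2097, and Tnnt2, cardiac troponin T, at 1998. Myl4, Myh7 and Tnnt2 did not keep one order in all libraries, and neither did the next neighbours Myl3 (1289), Tpm1 (1222) and Tnnc1 (1006). Skeletal actin Acta1 stood far below Actc1, at 48.4 on the same scale. At the low end were Cmya5 at 11.1, the M-band protein gene Myom2 at 7.52 and Xirp2 at 0.751.

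**Figure D2:**
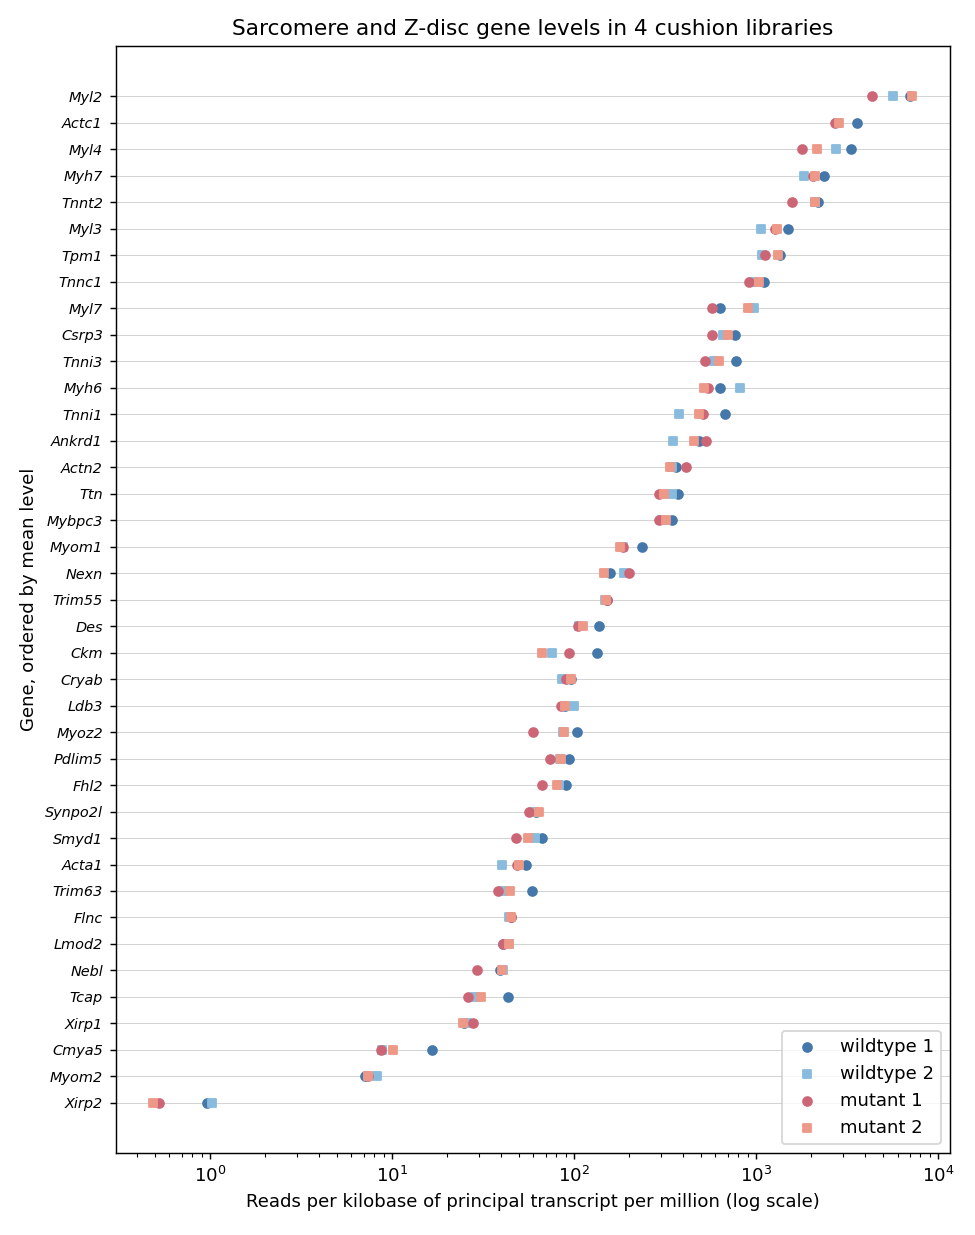
Points give each gene's level in CPM per kilobase of its principal transcript (log axis) in each of the 4 libraries, with genes ordered by their mean. Levels run from 0.751 for Xirp2 to 6065 for Myl2, and for most genes the 4 libraries lie close together on this scale.

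Comparing mutant with wildtype libraries asked which transcripts differ when Brg1 is lost from the endocardial lineage. For the contractile genes, edgeR's quasi-likelihood test called 0 of 39 at an adjusted p of 0.05, where 0.0629% of the 14316 genes tested did. All 39 passed the filter on low counts. At an unadjusted p under 0.05, 4 of the 39 were lower in the mutants, where 1.90% of all genes were, and 0 were higher, where 3.88% were. These 4 were Xirp2, Myl4, Myh6 and Smyd1; with the replicate block Myoz2 (unadjusted p = 0.0406 in edgeR) took the place of Smyd1 (0.0849). With replicate number as a block, edgeR called 0 members (0.887% of all genes), limma-voom 0 (0.0489% of all genes), DESeq2 1, Myl4 (0.426% of all genes), and the edgeR likelihood ratio test 1, Xirp2 (1.19% of all genes).

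The 2 pairs differed in how the contractile genes behaved. In pair 1, 33 of 39 genes were lower in the mutant library, with a median log2 ratio of -0.33. In pair 2, 16 were lower and 23 higher, and the median was 0.01. The medians over all genes tested were -0.0021 and 0.0029. Genes lower in both pairs numbered 12 of 39, where 24.1% of all genes were, and 2 were higher in both, Ankrd1 and Flnc, where 24.3% of all genes were. In the model, the median log2 fold change was -0.14 over the 39 genes. Leaving out wildtype replicate 1 brought it to -0.01 and leaving out mutant replicate 1 to -0.07, while without wildtype replicate 2 it was -0.24. Both mutant libraries lay below both wildtype libraries for 6 genes, Myh6, Myl4, Ttn, Smyd1, Xirp2 and Fhl2, where 16.3% of all genes showed this, and above them for 1, Flnc, where 17.0% did.

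Pair 2 differed in sex transcripts as well as genotype. Xist was at 13.3 CPM for mutant replicate 2, against 2047 to 2659 CPM elsewhere, and the genes Kdm5d, Eif2s3y, Uty and Ddx3y of the Y chromosome had 1131 to 3384 reads in that library and at most 28 in any other. Within pair 2, sex and genotype cannot be told apart.

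**Figure D3:**
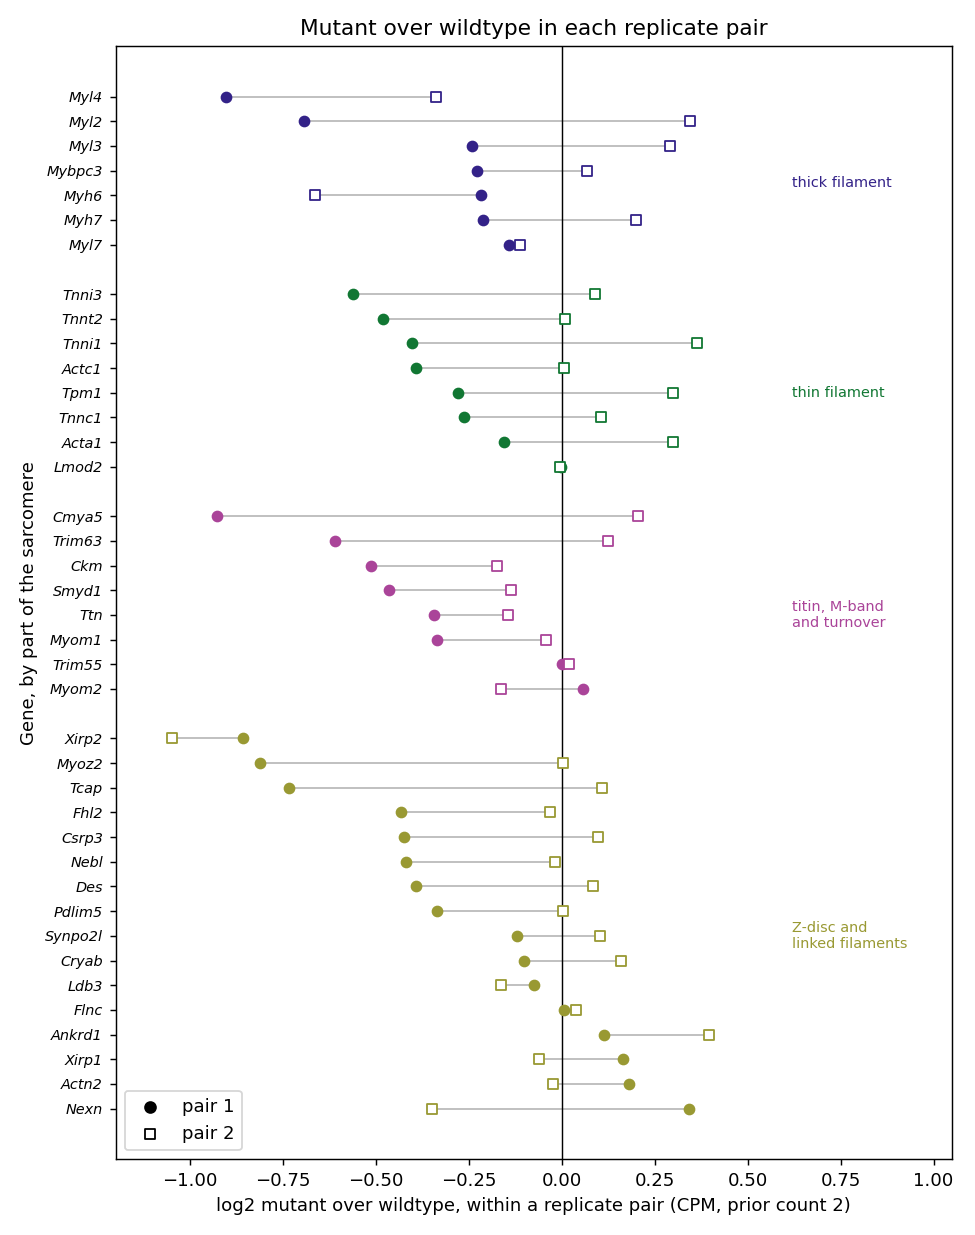
Each row gives 1 gene's log2 ratio of mutant over wildtype CPM (prior count 2) in pair 1 (filled circle) and pair 2 (open square), grouped by part of the sarcomere. Most circles lie left of 0 and the squares on both sides of it, while Xirp2, Myl4 and Myh6 have both marks to the left.

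Of the thick filament genes, the 3 atrial isoforms were lower in the mutant library in both pairs, and the 3 ventricular isoforms were lower in pair 1 and higher in pair 2. Summed, the atrial isoforms took 0.708% and 0.808% of gene reads in the wildtype libraries and 0.535% and 0.567% in the mutant libraries, and the groups did not overlap. This sum is mostly Myh6 and Myl4: in wildtype replicate 1 they had 72647 and 56378 of its 136072 reads, and Myl7 had 7047. The ventricular isoforms took 2.04% and 1.63% in wildtype and 1.71% and 1.93% in mutant libraries, and the groups overlapped. Neither sum was tested. How much of each chamber's muscle was cut out with the cushions was not tested.

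Myl4, the atrial essential light chain (chromosome 11, 104550663 to 104595753), measured 3002 and 2472 CPM (wildtype) and 1605 and 1955 CPM (mutant), each given from here on as replicate 1, then replicate 2. Both mutant libraries were below both wildtype libraries, with means of 1780 ± 247 (mutant) and 2737 ± 375 CPM (wildtype; SD, n = 2 each). Its log2 fold change was -0.62 ± 0.17 (SE), and edgeR's adjusted p was 0.390 (0.303 once replicates were blocked). DESeq2 gave an adjusted p of 0.0422. Without mutant replicate 2, edgeR gave -0.76 and an adjusted p of 9.261e-04, so its call changed with that library. Over the 4 fits that leave out 1 library it ran from -0.76 to -0.47.

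Myh6, the atrial myosin heavy chain (chromosome 14, 54941921 to 54966927), measured 3869 and 5004 CPM (wildtype) and 3330 and 3161 CPM (mutant). The difference was larger in pair 2, where wildtype replicate 2 had the highest value of the 4. The log2 fold change was -0.45 ± 0.17 (SE; edgeR adjusted p = 0.757). Without wildtype replicate 2 it was -0.26. Of all 50-base windows in the Myh6 transcript, 22.6% also occur in Myh7, which lies beside it on chromosome 14 (54970684 to 54994626). Reads aligned to several places were tallied outside genes, so reads wholly within shared sequence may be missing from both counts. Read length was not given, so the size of that loss is not known.

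Myl7, the atrial regulatory light chain (chromosome 11, 5896637 to 5898782), measured 375 and 579 CPM (wildtype) and 340 and 535 CPM (mutant). Its values went with the replicate number rather than the genotype: both libraries of number 2 were above both of number 1. The mutant library was lower by a log2 ratio of -0.14 in pair 1 and -0.11 in pair 2, and the model gave -0.12 ± 0.25 (SE; edgeR adjusted p = 0.985).

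Myl2, the ventricular regulatory light chain (chromosome 5, 122100951 to 122113472), had the widest swing of the ventricular isoforms. It measured 4663 and 3748 CPM (wildtype) and 2885 and 4763 CPM (mutant), so the mutant libraries were both the lowest and the highest. The pair ratios were -0.69 and 0.35, and the fold change was -0.14 ± 0.24 (SE). Without mutant replicate 2 it was -0.54 with an edgeR adjusted p of 0.0430, and without mutant replicate 1 it turned to 0.18. Myl3, the ventricular essential light chain (chromosome 9, 110741861 to 110769798), measured 1405 and 1005 CPM (wildtype) and 1189 and 1231 CPM (mutant). Myh7 measured 14785 and 11499 CPM (wildtype) and 12763 and 13200 CPM (mutant). For Myl3 and Myh7 the mutant values lay between the wildtype ones, and the log2 fold changes were 0.01 ± 0.18 and -0.02 ± 0.18 (SE). Mybpc3, the myosin binding protein of the thick filament, stood at -0.08, with pair ratios of -0.23 and 0.07.

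Ratios of reads within 1 library do not depend on how libraries are scaled. Myl4 had 2.14 and 2.46 reads for each read of Myl3 in wildtype and 1.35 and 1.59 in mutant replicates 1 and 2. On the log2 scale this ratio was lower in the mutant by -0.66 in pair 1 and -0.63 in pair 2, and the groups did not overlap. Myh6 had 0.262 and 0.435 reads for each read of Myh7 in wildtype and 0.261 and 0.239 in mutant libraries, a log2 difference of -0.0040 in pair 1 and -0.86 in pair 2. Both mutant libraries were below both wildtype libraries, but only wildtype replicate 2 stood apart; without it the difference of group means was -0.07, against -0.43 with it. Myl7 had 0.0805 and 0.154 reads for each read of Myl2 in wildtype and 0.118 and 0.112 in mutant libraries, with the mutant values between the wildtype ones.

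**Figure D4:**
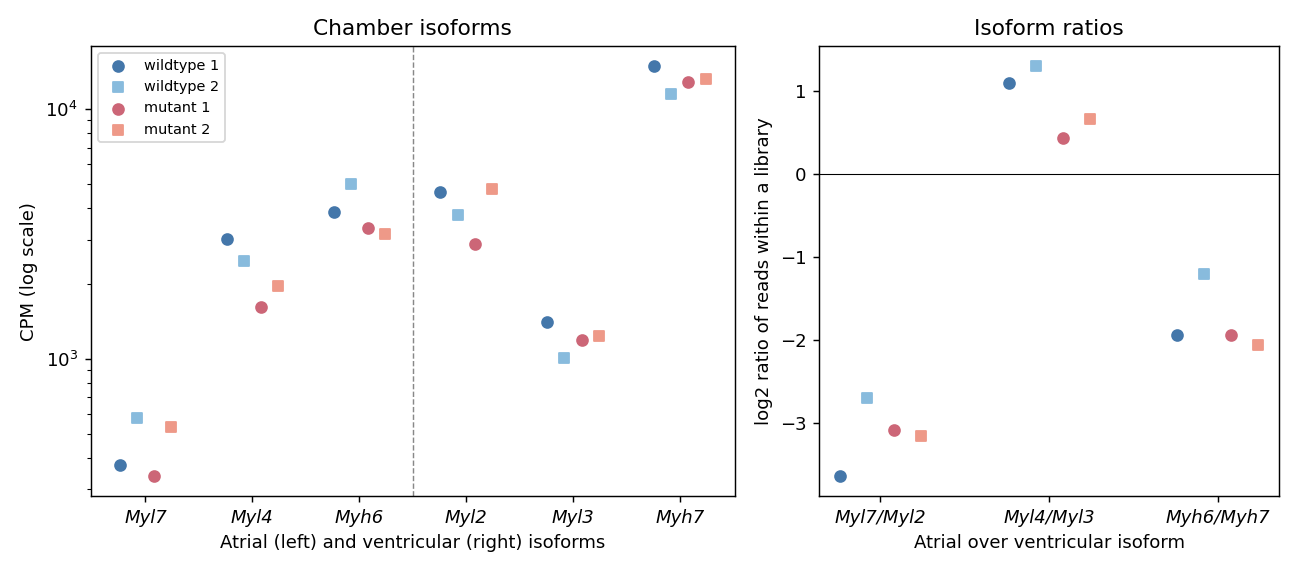
Left, CPM (log axis) of the atrial isoforms Myl7, Myl4 and Myh6 and the ventricular isoforms Myl2, Myl3 and Myh7 in each library; right, log2 ratio of reads of an atrial to a ventricular isoform within a library. The mutant points lie below both wildtype points for Myl4, Myh6, Myl4 over Myl3 and, narrowly in replicate 1, Myh6 over Myh7; for the other genes and ratio the groups overlap.

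Other atrial genes were mostly lower in the mutants too, with a median log2 fold change of -0.40. The other ventricular genes, given below, had -0.32. Nppa, atrial natriuretic peptide, measured 549.8 and 419 CPM (wildtype) and 214 and 244 CPM (mutant), a log2 fold change of -1.08 ± 0.16 (SE). Adjusted p was 0.0683 by edgeR, 0.00246 with the replicate block and 6.604e-07 by DESeq2. Nppa is also made by embryonic trabecular muscle. Of 7 other atrial genes (Nppa, Sln, Nr2f2, Kcna5, Dkk3, Bmp10, Tbx5), 6 were lower in pair 2 and 5 in pair 1, and 0 passed by edgeR without the block. Lower in both pairs were 4 of the 7, where 24.1% of all genes were. Dkk3, a secreted protein of the Dickkopf family, had a log2 fold change of -0.40 ± 0.19, with mutant replicate 2 alone apart: it measured 127 and 153 CPM (wildtype) and 128 and 84.6 CPM (mutant). Tbx5, picked after its values were seen, is a transcription factor of the atria that is also made in embryonic ventricle. It measured 47.6 and 54.6 CPM (wildtype) and 37.2 and 39.8 CPM (mutant) (edgeR unadjusted p = 0.0239, adjusted p = 0.734).

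Of 6 other ventricular genes, 5 were lower in pair 1 and 2 in pair 2, and 0 passed. Lower in both pairs were 2 of the 6, and the median log2 fold change of the list was -0.32. Hey2, a Notch target of compact ventricular muscle, had a log2 fold change of -0.09 ± 0.17. Gja5, a connexin of trabecular muscle and conduction tissue, had -0.57 ± 0.21 (SE, edgeR adjusted p = 0.711), the lowest of this list. Gja5 is also made in atrial muscle and arterial endothelium, so it does not measure ventricular muscle alone. For 4 of the 7 other atrial genes and 2 of the 6 other ventricular genes, both mutant libraries lay below both wildtype libraries. Over all genes this share was 16.3%. It was also so for 3 of 5 genes of atrioventricular canal muscle and its signals, whose median log2 fold change was -0.29. Among these, Rspo3, a Wnt signalling enhancer, measured 43.1 and 43.4 CPM (wildtype) and 34.3 and 35.5 CPM (mutant), and Bmp2, the ligand that patterns the canal, 23.2 and 22.0 against 18.0 and 19.0 CPM. Both had edgeR adjusted p above the threshold, 0.891 and 0.936.

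Thin filament genes were lower in pair 1 for 8 of 8 and in pair 2 for 1 of 8, and 0 passed at an unadjusted p under 0.05. Actc1 (chromosome 2, 114047282 to 114053548) measured 5263 and 4176 CPM (wildtype) and 4007 and 4195 CPM (mutant), with wildtype replicate 1 apart from the other 3. Tnnt2 measured 2631 and 2527 CPM (wildtype) and 1886 and 2544 CPM (mutant), with mutant replicate 1 apart. Their log2 fold changes were -0.20 ± 0.17 and -0.22 ± 0.18 (SE; edgeR adjusted p = 0.967 and 0.964). Tnni3, cardiac troponin I, measured 706 and 539.8 CPM (wildtype) and 478 and 574 CPM (mutant). Its fetal counterpart Tnni1 measured 779 and 436 CPM (wildtype) and 589 and 561 CPM (mutant), between the wildtype values. The ratio of Tnni1 to Tnni3 reads, which falls as heart muscle matures, was 1.10 and 0.808 in wildtype and 1.23 and 0.976 in mutant libraries, with groups that overlapped.

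Most other thin filament genes were lower in pair 1 and higher in pair 2. Tropomyosin Tpm1 had pair ratios of -0.28 and 0.30 and troponin C, Tnnc1, -0.26 and 0.11, on the log2 scale. Lmod2, which lengthens thin filaments, was lower in both, at -0.0032 and -0.0060. Acta1 measured 78.7 and 58.6 CPM (wildtype) and 70.6 and 72.1 CPM (mutant). It had 0.0150 and 0.0140 reads for each read of Actc1 in wildtype and 0.0176 and 0.0172 in mutant libraries, without overlap, a log2 difference of 0.24 in pair 1 and 0.29 in pair 2. Acta1 itself had a log2 fold change of 0.06 ± 0.16 and Actc1 one of -0.20 ± 0.17 (SE). This skeletal isoform is the form of actin that fetal and stressed heart muscle adds to cardiac actin. Whether the ratio reflects such a state was not tested.

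The group of titin, M-band and turnover genes had the lowest median of the 4 structural groups, -0.25. Its medians were -0.40 in pair 1 and -0.09 in pair 2. Besides Ttn, Myom1 and Myom2 its 8 members were Smyd1, Trim63, Trim55, Ckm and Cmya5. Ttn (chromosome 2, 76703980 to 76982547) measured 37497 and 34651 CPM (wildtype) and 29552 and 31334 CPM (mutant), without overlap between the groups. Its log2 fold change was -0.24 ± 0.18 (SE; edgeR adjusted p = 0.962). Myom1, myomesin of the M-band, measured 1335 and 1047 CPM (wildtype) and 1058 and 1016 CPM (mutant), with wildtype replicate 1 apart from the other 3. Smyd1, a muscle methyltransferase needed for sarcomere assembly, measured 219 and 202 CPM (wildtype) and 159 and 184 CPM (mutant), without overlap. Its log2 fold change was -0.30 ± 0.13 (SE; unadjusted p = 0.0498, edgeR adjusted p = 0.864).

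Cmya5, a desmin-binding protein, measured 196 and 105 CPM (wildtype) and 103 and 121 CPM (mutant), so that wildtype replicate 1 alone was high. Muscle creatine kinase Ckm measured 368 and 208 CPM (wildtype) and 258 and 184 CPM (mutant); its log2 fold change was -0.38 ± 0.25 (SE; edgeR adjusted p = 0.954). Without mutant replicate 1 it was -0.65 with an edgeR adjusted p of 0.0185, and without wildtype replicate 1 it turned to 0.09. The ubiquitin ligase gene Trim63 had pair ratios of -0.61 and 0.12, while its relative Trim55 stood near 0 in both pairs. Myom2 stood at 0.06 and -0.16.

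Xirp2, an actin-binding repeat protein of Z-discs and intercalated discs (chromosome 2, 67446002 to 67526614), had the largest log2 fold change of the 39 genes. It had 216 and 194 reads in wildtype and 143 and 83 in mutant replicates 1 and 2, or 11.5 and 12.2 CPM against 6.29 and 5.86 CPM. The mutant libraries were lower in both pairs and the groups did not overlap, with means of 6.08 ± 0.306 (mutant) and 11.9 ± 0.524 CPM (wildtype; SD, n = 2 each); the fitted ratio was 0.513. The log2 fold change was -0.96 ± 0.20 (SE; unadjusted p = 8.959e-04, edgeR adjusted p = 0.179), or an adjusted p of 0.0685 with the replicate block. The authors' deposited table gave Xirp2 -0.96 and an adjusted p of 0.0538. Without mutant replicate 1 the edgeR adjusted p was 0.0431 and without mutant replicate 2 it was 0.0421; without a wildtype library it was 0.593 or 0.722. Xirp1, its close relative, measured 145 and 151 CPM (wildtype) and 163 and 144 CPM (mutant), with a log2 fold change of 0.05 ± 0.13. The difference between the 2 relatives was not tested.

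Among the other Z-disc genes, Actn2, the actinin that crosslinks thin filaments, had the highest CPM, at 1096 and 1039 in wildtype and 1243 and 1022 in mutant libraries. Ankrd1, a titin-bound repeat protein that responds to stretch, measured 989 and 704 CPM (wildtype) and 1070 and 928 CPM (mutant). It was higher in the mutant in both pairs, with groups that overlapped and a log2 fold change of 0.24 ± 0.18 (SE; edgeR adjusted p = 0.962), which became 0.51 without wildtype replicate 1 and 0.01 without wildtype replicate 2. Myoz2, calsarcin of the Z-disc, measured 123 and 103 CPM (wildtype) and 70.4 and 104 CPM (mutant), with mutant replicate 1 apart. For Myoz2 the log2 fold change was -0.39 ± 0.19, and the edgeR adjusted p was 0.896, or 0.00721 without mutant replicate 2.

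The short Z-disc genes Tcap and Csrp3, which encode telethonin and muscle LIM protein, had pair ratios of -0.73 and 0.11, and of -0.42 and 0.10. Desmin (Des), the intermediate filament that ties Z-discs together, had -0.39 and 0.08, and its chaperone Cryab -0.10 and 0.16. Nexn, an F-actin binding protein, had the reverse order, at 0.34 and -0.35. Filamin C, Flnc, differed little, at 402.0 and 392 CPM (wildtype) and 404 and 402 CPM (mutant). Ldb3, Pdlim5 and Fhl2, which carry LIM domains, had log2 fold changes of -0.12, -0.17 and -0.23, Nebl, cardiac nebulette, -0.20, and Synpo2l -0.01.

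Other heart muscle genes were set beside these. Of 24 further sarcomere genes tested, 15 were lower in pair 1 and 12 in pair 2, the median log2 fold change was -0.07, and 0 passed by edgeR, with the block or by DESeq2. The members of highest level, Myl9 and the capping protein gene Capza2, which other cells also express, stood at -0.23 ± 0.17 and -0.22 ± 0.16. There were 2 lower at an unadjusted p under 0.05, where 1.90% of all genes were. These were Nrap at -0.36 ± 0.13 and Kbtbd10 (Klhl41) at -0.54 ± 0.17, both named after their values were seen. Of 12 calcium handling genes 0 passed; Slc8a1, the sodium-calcium exchanger, stood at -0.14 and Atp2a2, the calcium pump of the sarcoplasmic reticulum, at -0.06. At an unadjusted p under 0.05, 2 were lower, where 1.90% of all genes were. These were Casq2, the calcium store protein, at -0.35 ± 0.15 and Trdn, triadin of the release complex, at -0.34 ± 0.12, both named after their values were seen. For both, the groups did not overlap. Of the 12 genes, 3 had both mutant libraries below both wildtype libraries and 1 had both above, where 16.3% and 17.0% of all genes did. The 9 cardiac transcription factors had a median of -0.0019, with Tbx20 at 0.06 and Mef2a at -0.16. The 12 metabolic genes of cardiomyocytes split like the thin filament, with medians of -0.46 in pair 1 and 0.14 in pair 2; Slc25a4, the ADP/ATP carrier, stood at -0.12 and Fabp3, the fatty acid binding protein, at -0.26. Pgam2, a glycolytic enzyme of muscle named after its values were seen, was lower in both pairs, at -0.38 ± 0.14 (SE; unadjusted p = 0.0247, edgeR adjusted p = 0.745). Intercalated disc genes had medians of 0.04 and -0.04, with Dsp at -0.02 and Cdh2 at 0.07.

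Of the skeletal muscle isoforms, 8 of 13 passed the filter on low counts, and their summed level was 53.3 to 76.6 CPM. Myl1, a light chain of fast skeletal muscle and embryonic heart, was the member of highest level, at 45.3 and 49.2 CPM (wildtype) and 25.5 and 25.2 CPM (mutant). It had a log2 fold change of -0.90 ± 0.15 (SE); adjusted p was 0.110 by edgeR, 0.0139 with the block and 0.00105 by DESeq2. Tnni2, troponin I of fast skeletal muscle, had a log2 fold change of 0.68 ± 0.25 (SE; edgeR adjusted p = 0.727).

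Markers of other cells gave the setting of these values. The summed level of 10 endocardial and endothelial genes was 1366 and 1404 CPM (wildtype) and 1301 and 1340 CPM (mutant). That of 10 cushion mesenchyme genes was 6758 and 6786 CPM against 7227 and 6305 CPM, so transcripts of both lists were present in each library. Whether the cells that made them carried the reporter was not tested. Within the endocardial list Npr3, a natriuretic peptide receptor named after its values were seen, was lower in both pairs at -0.88 ± 0.12 (SE). It measured 243 and 229 CPM (wildtype) and 124 and 132 CPM (mutant). The list's sum includes Npr3, so the 2 falls are not independent. Over the 10 genes the median log2 fold change was -0.0019, with 5 lower and 5 higher in each pair. Adjusted p for Npr3 was 0.0654 for edgeR, 0.00646 with the block and 5.615e-06 by DESeq2. The mesenchyme genes were higher in the mutant for 8 of 10 in pair 1 and lower for 10 of 10 in pair 2. Smooth muscle genes summed to 1187 and 1222 CPM (wildtype) and 1275 and 1339 CPM (mutant). Leukocyte genes were higher in the mutant in both pairs for 8 of 8, where 24.3% of all genes were. Their sum went from 109 and 115 to 172 and 193 CPM. Of these, 1 passed by edgeR, Ptprc (CD45, adjusted p = 0.0119), where 0.0629% of all genes did. With the block, which called 0.887% of all genes, Csf1r and Emr1 passed too. DESeq2, which called 0.426% of all genes, called Ptprc and Csf1r. Erythroid genes summed to 587 and 596 CPM (wildtype) and 851 and 653 CPM (mutant), and the block and DESeq2 called 1 of 8, Slc4a1. These blood cell genes were named after their values were seen. The part of these cells in the contractile gene values was not tested.

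**Figure D5:**
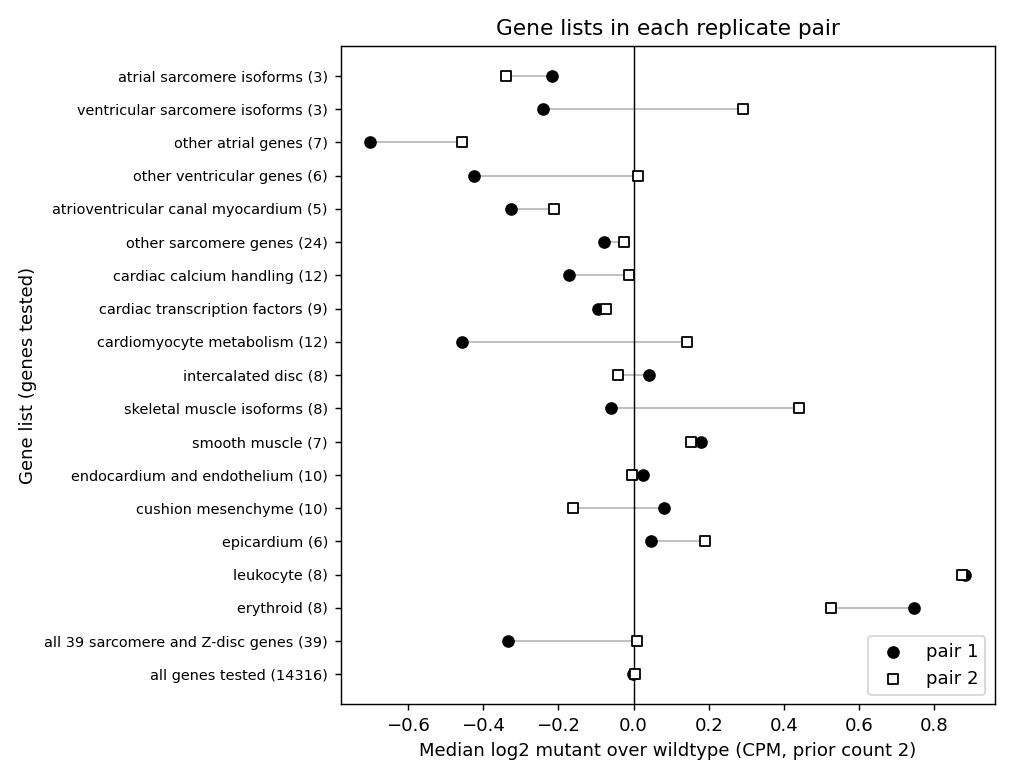
Each row gives the median log2 ratio of mutant over wildtype CPM (prior count 2) of a gene list in pair 1 (filled circle) and pair 2 (open square), with the number of genes tested in parentheses. Both marks lie left of 0 for the atrial lists, atrioventricular canal, other sarcomere, calcium handling and transcription factor lists, and right of 0 for smooth muscle, epicardium, leukocyte and erythroid genes, while the 39 contractile genes have -0.33 in pair 1 and 0.01 in pair 2.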

How the data were processed

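The authors deposited raw counts of reads for each gene symbol. The tools, per the submitters' processing notes, were TopHat2, Bowtie2, HTSeq, SAMtools and edgeR, on mm10. Versions, annotation, strand setting and read length were not given in the sources used here, so reads of genes that overlap or lie antisense cannot be separated. Rows outside genes were left out: reads in no feature made up 51.8% to 54.4% of tallied reads and reads aligned to several places 16.1% to 17.0%. A comparison table that the authors deposited held p-values, a likelihood ratio score, log2 values of fold and level, and a fold ratio; its sign was turned to mutant over wildtype by comparison with the counts. It has a row for each of the 39 genes.

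The test on counts was run in R 4.3.3 with edgeR 4.0.16 (TMM scaling, filterByExpr, quasi-likelihood F test for genotype over 14316 genes, Benjamini-Hochberg adjustment, threshold 0.05); DESeq2 1.42.0 and limma 3.58.1 were alternatives. The fit was tested on simulated counts. CPM uses TMM-scaled library sizes, pair ratios a prior count of 2, and standard errors were derived by dividing a fold change by the root of F. Lengths and positions are from GENCODE M21 on mm10. The design text gives the pairing; libraries sharing a number deviated from their groups with a correlation of 0.144 across genes, or 0.0448 across genes above a CPM of 5.

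The members, gene lists and tests were chosen with earlier results of these data known. Named were all 39 members. Values by library were given for the chamber isoforms and, per structural group, the 2 of highest CPM and the 2 of smallest p. They were also given for Tnni1, Acta1, Ckm, Xirp1 and Flnc, which that rule did not pick. From other heart muscle lists came members past the threshold or the 2 of highest CPM, and other genes where the text says so. No set test was run.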

Additional observations from a re-analysis of the deposited data

How the results depend on the processing

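With 2 libraries a group, few differences can be resolved. The count of contractile genes called was 0 in the reported fit, with the replicate block, with RLE or upper-quartile scaling, with the 39 genes left out of the scaling, with a filter of CPM over 5 in 2 libraries and by limma-voom. It was 2 (Myl4 and Xirp2) without a filter on low counts, 1 by DESeq2, 1 by the likelihood ratio test, and 0 to 4 with a library left out: 2 (Ckm and Xirp2) without mutant replicate 1 and 4 (Myl2, Myl4, Myoz2 and Xirp2) without mutant replicate 2. Over the whole table the 9 calls became 127 with the replicate block, 236 without a filter, 61 by DESeq2, 171 by the likelihood ratio test, and 3 to 443 with a library left out: 3 without wildtype replicate 2, 180 without mutant replicate 1 and 443 without mutant replicate 2. The lone library is then assumed to vary like the other group, and the cause was not tested. The median of the 39 genes ran from -0.16 to -0.12 with all libraries and from -0.24 to -0.0060 with a library left out. The difference in read share was -0.244 points over all tallied reads, where the pairs gave -0.542 and 0.0530, since the base then includes reads outside genes, and ran from -1.24 to -0.446 with a library left out. The Myl7 to Myl2 difference ran from -0.42 to 0.52 and that of Tnni1 to Tnni3 from -0.01 to 0.44, so both changed sign; Myl4 to Myl3 ran from -0.76 to -0.53, Myh6 to Myh7 from -0.80 to -0.07 and Acta1 to Actc1 from 0.22 to 0.31. A sign change of a log2 fold change occurred for 0 of 39 genes with RLE scaling, 3 with upper-quartile scaling, 1 with the block and 3 to 11 with a library left out.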

Other observations

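Transcript length was related to the pair ratios in opposite directions in the 2 pairs. Across the 39 genes, which are not independent and share their libraries, the log2 ratio of mutant over wildtype correlated with the length of the principal transcript at a Spearman rho of 0.23 in pair 1 and -0.38 in pair 2. Over 14141 genes with an annotated length the values were 0.23 and -0.13. Pearson correlations in pairs 1 and 2 were 0.11 and -0.38 for the 39 genes, and 0.17 and -0.07 for the 14141. The part of length in the difference between the pairs was not tested.

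Differences between replicates can be set beside those between genotypes. The median size of the log2 difference over the 39 genes was 0.24 between the wildtype libraries and 0.18 between the mutant libraries, against 0.16 for the fold change of genotype; over all genes tested these were 0.18, 0.22 and 0.14. The ventricular light chain Myl2 differed by 0.72 between the mutant libraries, and the slow troponin Tnni1 was at 779 and 436 CPM in the wildtype libraries.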
